A study of Mus musculus with 9 samples.

Results

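The CC chemokines are small secreted proteins, named for a pair of adjacent cysteines near the amino terminus, that guide leukocytes towards the cells that release them. They act through G protein-coupled receptors of the CCR family, and most bind more than 1 receptor. In fibroblasts and other stromal cells, tumour necrosis factor (TNF-α) switches on a number of them through its receptor TNFR1 and the transcription factor NF-κB. The 9 genes described here are Ccl2, Ccl7, Ccl20, Ccl3, Ccl4, Ccl5, Ccl8, Ccl9 and Ccl11. They were taken as the genes whose symbol stands alone on a transcript cluster in the platform annotation, and they are 9 of 19698 genes tested. Each of them has 1 transcript cluster, so no choice between clusters was needed.

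Levels were measured on 9 Affymetrix Mouse Gene 1.0 ST arrays of bulk RNA from 3T3 fibroblasts, an immortalised mouse embryonic line, grown as subconfluent cultures. The arrays form 3 groups of 3: BAF-knockdown cells exposed to TNF-α (5 ng per ml) over 1 h, control cells given the same TNF-α, and control cells left unstimulated. Knockdown cells stably expressed 1 short hairpin RNA, from the mouse U6 promoter of a retroviral vector that also makes GFP, and had been sorted for high GFP. The hairpin is directed at a stretch common to Brg1 and Brm, the ATPase subunits of the BAF (SWI/SNF) nucleosome remodelling complex, encoded by Smarca4 and Smarca2. The knockdown cells are thus a sorted population, and what vector the control cells carried is not stated. The TNF response within the knockdown cells has no baseline of its own, since no unstimulated array of them was analysed here. Arrays of a number, 1 to 3, were taken as 1 replicate day, because same-numbered arrays deviated together. The labels do not state the day of any array.

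The label of the cells and the targeted genes were checked first. Col1a1 and Col1a2, the chains of fibroblast collagen I, averaged 12.47 and 12.21 log2 units in BAF-knockdown cells, 12.61 and 12.50 in TNF-treated control cells and 12.82 and 12.70 in unstimulated control cells. Of the 12 fibroblast markers 9 averaged above every array's median, while Lum and Fap, between 4.81 and 5.20 in the 3 groups, averaged below every array's lower quartile and Thy1 (7.43 to 7.52) lay between. The leukocyte marker Ptprc (CD45) averaged 6.32 in BAF-knockdown cells, 6.34 in TNF-treated control cells and 6.26 in unstimulated control cells. An array's lower quartile over all transcript clusters was 6.38 to 6.46. Of the 11 leukocyte markers analysed 4 averaged below every array's lower quartile and 2 above every array's median, Cd14 (9.62 to 9.80) and Cd68 (8.17 to 8.31). The mean level of these 11 ran from 7.01 to 7.09 in BAF-knockdown cells, from 7.00 to 7.09 in TNF-treated control cells and from 6.99 to 7.04 in unstimulated control cells, with 0 of 11 passing in any comparison, and 0 at an unadjusted p under 0.05 (limma). Smarca4 stood at 10.50, 10.64 and 10.25 in the 3 BAF-knockdown arrays and averaged 11.57 ± 0.04 in TNF-treated control cells (SD, n = 3), a difference of -1.11 ± 0.09 (SE, adjusted p = 0.0036). Smarca2 differed by -0.36 (1.29-fold lower) and did not pass (adjusted p = 0.734, or 0.129 in a limma fit with the replicate number as a block). Its arrays in these 2 groups did not overlap, with the knockdown ones lower, against 5.47% of all genes. The margin was narrow, between 9.38 in the highest knockdown array and 9.39 in the lowest TNF-treated control array. The knockdown arrays overlapped the unstimulated control arrays (9.18, 9.94 and 9.22). BAF-knockdown array 2 retained the most Smarca4 of the 3. On the first principal component of all genes it lay at 4.0, against 17.8 and 22.6 for BAF-knockdown arrays 1 and 3. Array 2 was also the lowest on this component in TNF-treated control cells (-13.3, against -2.4 and 1.9). The same held in unstimulated control cells (-19.8, against -9.6 and -1.3). Whether the retained Smarca4 had a part in the position of BAF-knockdown array 2 was not tested.

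The promoters of the members are shown first, and whether their letters bear on the levels described below was not tested. RefSeq promoter entries (GRCm38.p6) matched 4 of the 9 members, Ccl20, Ccl3, Ccl9 and Ccl8. Ccl2, Ccl7, Ccl4, Ccl5 and Ccl11 are named only. The 250 bases before each start site are printed 5′ to 3′ on the gene's own strand. Capitals mark matches, on either strand, to the NF-κB consensus, the AP-1 motif TGANTCA, the GC box GGGCGG or the TATA box TATAAA.
Ccl20, chr1:83116516-83116765, plus strand: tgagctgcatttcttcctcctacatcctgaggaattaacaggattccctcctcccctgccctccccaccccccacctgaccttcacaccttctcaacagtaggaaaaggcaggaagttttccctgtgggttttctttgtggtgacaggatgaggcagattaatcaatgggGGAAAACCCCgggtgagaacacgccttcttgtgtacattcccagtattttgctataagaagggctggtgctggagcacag
Ccl3, chr11:83649379-83649628, minus strand: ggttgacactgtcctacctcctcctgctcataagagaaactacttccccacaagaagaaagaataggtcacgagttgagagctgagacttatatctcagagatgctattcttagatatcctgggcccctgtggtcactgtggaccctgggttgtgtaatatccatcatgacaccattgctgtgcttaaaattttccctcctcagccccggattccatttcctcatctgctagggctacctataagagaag
Ccl9, chr11:83578637-83578886, minus strand: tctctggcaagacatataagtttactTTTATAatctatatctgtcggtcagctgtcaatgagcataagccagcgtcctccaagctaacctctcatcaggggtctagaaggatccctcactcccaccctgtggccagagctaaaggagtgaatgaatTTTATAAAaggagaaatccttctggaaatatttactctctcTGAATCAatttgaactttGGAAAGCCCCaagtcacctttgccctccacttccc
Ccl8, chr11:82114935-82115184, plus strand: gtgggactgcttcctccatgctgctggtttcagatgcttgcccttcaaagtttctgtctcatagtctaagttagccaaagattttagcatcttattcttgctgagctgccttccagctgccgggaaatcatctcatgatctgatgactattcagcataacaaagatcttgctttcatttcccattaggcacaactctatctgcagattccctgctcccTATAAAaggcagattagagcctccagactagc
The NF-κB consensus was matched in Ccl20, at bases 80 to 71 before the start, and in Ccl9, at bases 35 to 26, in both genes on the opposite strand. Of 32807 promoter windows of this length in the table, 7.25% held it. AP-1 was matched in Ccl9 alone of the 4, at bases 53 to 47 (a palindrome, so it is found on both strands), and in 6.75% of all windows. TATAAA was matched in Ccl8 at bases 32 to 27, and in Ccl9 on the gene's strand at bases 92 to 87, overlapping an opposite-strand match at 94 to 89, with a further opposite-strand match at 224 to 219. It was present in 12.4% of all windows. GGGCGG was matched in 0 of the 4, against 32.7% of all windows, and Ccl3 held none of the 4 motifs in these letters. The observed over expected CG ratio was 0.12 in Ccl20, 0.15 in Ccl3, 0.17 in Ccl9 and 0.08 in Ccl8, at a GC content of 51.2%, 46.8%, 43.6% and 44.8% in the same order. Ratios under 0.6 were common, in 66.1% of all windows, with a median of 0.37. A match describes the letters and says nothing of whether a factor binds there.

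One hour of TNF-α raised 4 of the 9 genes in control cells: Ccl2, Ccl7, Ccl20 and Ccl3, by 2.67-fold to 5.20-fold. Over all genes 0.137% were called higher by the same test, 27 of 19698. Unstimulated Ccl3 and Ccl20 averaged 6.93 and 7.16, below an array's median of 7.77 to 7.83, and whether that signal is above background was not tested, which limits how exact their folds and shares are. The median difference of the 9 members was 0.87 log2 units, that of Ccl9, which did not pass, against -0.00 over all genes. The members were chosen with earlier results of these data known, so this median is a description and not a test. BAF-knockdown cells given TNF-α differed from TNF-treated control cells by at most 0.23 log2 units in the mean level of these 4 genes. Ccl9 and Ccl5 were the members that differed most between the knockdown and control cells after TNF-α, in opposite directions, and neither passed in the fit without the replicate number, while both passed with it. Ccl4, Ccl8 and Ccl11 passed in no comparison.

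**Figure D1:**
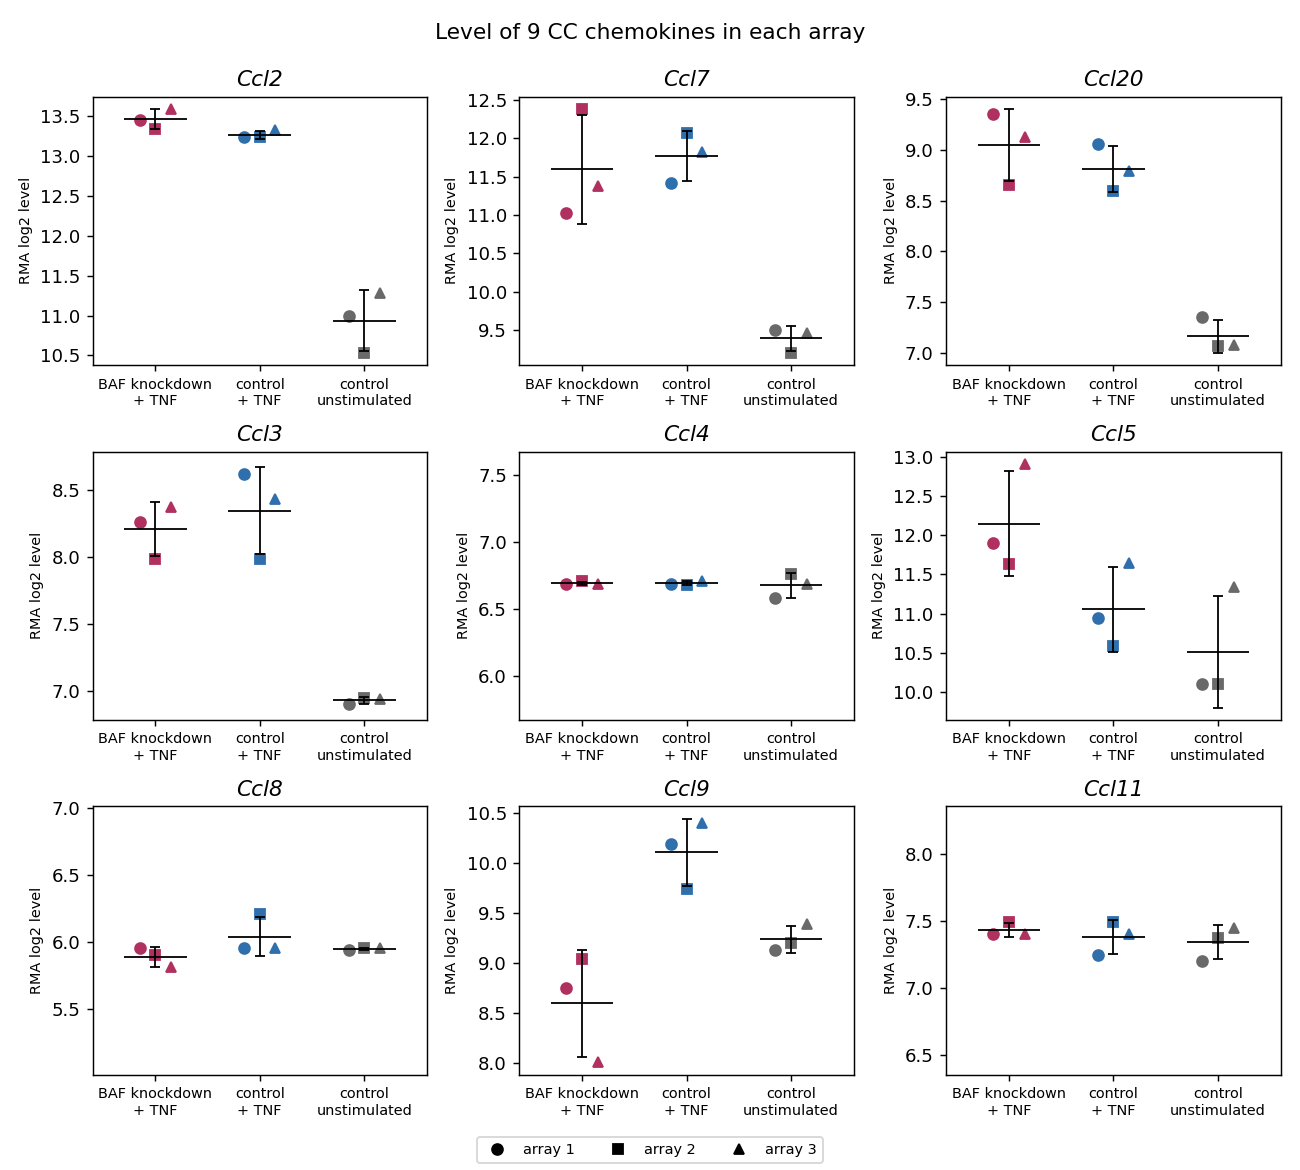
RMA log2 level of each CC chemokine in each array, with the BAF-knockdown cells given TNF-α on the left, the control cells given TNF-α in the middle and the unstimulated control cells on the right; horizontal lines are means, bars are SD (n = 3) and symbols give the array number, on a vertical scale of its own for each gene. Ccl2, Ccl7, Ccl20 and Ccl3 are high in both TNF-treated groups, Ccl9 is lowest in the knockdown arrays and Ccl5 is highest in array 3 of every group.

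Ccl2 (MCP-1), the chief attractant of monocytes through CCR2, had log2 levels of 13.45, 13.34 and 13.59 in BAF-knockdown cells, 13.23, 13.23 and 13.32 in TNF-treated control cells, and 10.99, 10.53 and 11.28 in unstimulated control cells. The unstimulated arrays lay far below all others, and the knockdown arrays lay just above the TNF-treated control arrays without overlap. TNF-treated minus unstimulated control cells differed by 2.33 ± 0.16 (SE, 5.02-fold, adjusted p = 0.000891). Within array numbers 1, 2 and 3 the TNF difference was 2.24, 2.70 and 2.04.

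Ccl7 (MCP-3), which neighbours Ccl2 and also draws monocytes through CCR2, had levels of 11.03, 12.39 and 11.38 in BAF-knockdown cells, 11.42, 12.07 and 11.82 in TNF-treated control cells, and 9.50, 9.20 and 9.46 in unstimulated control cells. Both TNF-treated groups stood clear of the unstimulated arrays and overlapped each other. The TNF difference in control cells was 2.38 ± 0.31 (5.20-fold, adjusted p = 0.0366). Ccl7 was the member with the widest knockdown spread (SD 0.71), with knockdown array 2 above, and arrays 1 and 3 below, the same-numbered TNF-treated control array.

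Ccl20 (MIP-3α), the ligand of CCR6 that attracts T cells, B cells and immature dendritic cells, had levels of 9.36, 8.65 and 9.13 in BAF-knockdown cells, 9.05, 8.60 and 8.79 in TNF-treated control cells, and 7.35, 7.07 and 7.07 in unstimulated control cells. Both TNF-treated groups lay above every unstimulated array. The TNF difference in control cells was 1.65 ± 0.18 (3.14-fold, adjusted p = 0.0139). It was 1.70, 1.53 and 1.72 within array numbers 1, 2 and 3, the narrowest of the 4 called genes in these pairs.

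Ccl3 (MIP-1α), a ligand of CCR1 made above all by macrophages, had levels of 8.26, 7.98 and 8.37 in BAF-knockdown cells, 8.62, 7.99 and 8.43 in TNF-treated control cells, and 6.90, 6.95 and 6.94 in unstimulated control cells. The unstimulated arrays were close together and below every TNF-treated array. The TNF difference was 1.42 ± 0.15 (2.67-fold, adjusted p = 0.0139). Arrays numbered 2 had the lowest Ccl3 and Ccl20 in both TNF-treated groups and the highest Ccl7.

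Ccl9 (MIP-1γ), a CCR1 ligand of mice, had levels of 8.75, 9.04 and 8.01 in BAF-knockdown cells, 10.18, 9.74 and 10.39 in TNF-treated control cells, and 9.13, 9.20 and 9.39 in unstimulated control cells. The 3 groups did not overlap, with the knockdown arrays lowest and the TNF-treated control arrays highest. TNF-treated minus unstimulated control cells differed by 0.87 ± 0.25 (1.83-fold), which did not pass (adjusted p = 1, unadjusted p = 0.00799). Ccl5 (RANTES), which attracts T cells and monocytes, had levels of 11.90, 11.64 and 12.91 in BAF-knockdown cells, 10.94, 10.58 and 11.64 in TNF-treated control cells, and 10.11, 10.10 and 11.34 in unstimulated control cells. Array 3 was the highest of each group and TNF-treated and unstimulated control arrays overlapped. The TNF difference of Ccl5 was 0.54 ± 0.44 (adjusted p = 1), and 0.83, 0.48 and 0.30 within array numbers 1, 2 and 3.

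The arrays of TNF-treated and unstimulated control cells did not overlap, with the treated ones higher, for 5 of the 9 members, the 4 called genes and Ccl9, against 3.19% of all genes. With the replicate number as a block the same 4 members passed, against 0.366% of all genes, with adjusted p values from 0.000298 for Ccl2 to 0.0108 for Ccl7. That fit gave 0 members without the arrays numbered 1, and 2, Ccl2 and Ccl20, without those numbered 3. Leaving out single arrays, Ccl2 passed each time (adjusted p 0.000824 to 0.0118). Ccl7 did not pass without any 1 of the 6 control arrays (0.119 to 0.194) or without BAF-knockdown array 3 (0.0849), and neither Ccl20 (0.0566 to 0.0936) nor Ccl3 (0.0555 to 0.0894) passed without any 1 of the unstimulated arrays or without TNF-treated control array 1 or 3. Over the fits that left out 1 array, the lowest difference among these 4 genes was 1.28, for Ccl3.

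Ccl4, Ccl8 and Ccl11 varied little over the 9 arrays. Ccl4 (MIP-1β), encoded next to Ccl3, lay between 6.58 and 6.76 on all 9 arrays, a range of 0.18. Ccl8 (MCP-2) lay between 5.81 and 6.21, and Ccl11 (eotaxin-1), which attracts eosinophils through CCR3, between 7.20 and 7.50. The TNF differences were 0.02 for Ccl4, 0.09 for Ccl8 and 0.04 for Ccl11, and the knockdown differences were -0.00, -0.15 and 0.06 in the same order. Exactly the same value stood on 5 arrays for Ccl8, 4 for Ccl4 and 3 for Ccl11. Each of the 3 averaged less than an array's median of 7.77 to 7.83, and deposited values carry no call of detection, so a lack of RNA and a lack of response cannot be told apart for them.

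BAF knockdown was set against control cells, both given TNF-α, to compare each gene's level between the 2 populations. Smarca2 did not pass as lower, and the vector of the control cells is not stated. Effects of lower Brg1, of lower Brm and of vector and sorting cannot be told apart in this comparison. Without the block, 0 of the 9 members passed (limma, adjusted p), while 0.0355% of all genes were called higher and 0.102% lower. The unadjusted limma p was 0.0354 for Ccl5, which was higher, and 0.000249 for Ccl9, which was lower. With the replicate number as a block both passed, Ccl5 higher, against 0.98% of all genes called higher, and Ccl9 lower, against 2.33% called lower. A difference over 0.3 with no test, the criterion in the methods for BAF-dependent or BAF-inhibited genes, was met by the same 2 members, against 1.87% of all genes on the higher side and 3.27% on the lower. In bulk RNA, a smaller share of producing cells and less RNA in each cell cannot be told apart.

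Ccl9 was 2.84-fold lower in BAF-knockdown than in TNF-treated control cells, with means of 8.60 ± 0.53 and 10.10 ± 0.33 (SD, n = 3 each). The difference was -1.51 ± 0.25 (SE, 95% interval -2.08 to -0.93, adjusted p = 0.0721, or 0.0261 with the block). Within array numbers 1, 2 and 3 it was -1.44, -0.70 and -2.38, lower in 3 of 3. The smallest of these belongs to the number whose knockdown array had the most Smarca4 (10.64) and the largest to the number with the least (10.25), an order over 3 arrays whose part in the result was not tested. TNF-treated control array 2 also had the lowest Ccl9 of its group (9.74, against 10.18 and 10.39). The differences of Ccl5 did not take this order, being 0.96, 1.06 and 1.27 within numbers 1, 2 and 3. The call moved with single arrays. Without BAF-knockdown array 2, Ccl9 passed with no block (-1.73, adjusted p = 0.0303), and with the block it failed without the arrays numbered 1 (adjusted p = 0.423) or numbered 3 (0.0984). Ccl9 in BAF-knockdown cells was also below every unstimulated control array, by 0.64 ± 0.25 on average (1.56-fold lower), which did not pass (adjusted p = 0.362, or 0.271 with the block).

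Ccl5 was 2.14-fold higher in BAF-knockdown than in TNF-treated control cells, with means of 12.15 ± 0.67 and 11.05 ± 0.54 (SD, n = 3 each). The groups overlapped, yet within array numbers 1, 2 and 3 the difference was 0.96, 1.06 and 1.27, higher in 3 of 3. The fit without the block gave 1.09 ± 0.44 (SE, adjusted p = 0.525) and the fit with it 1.09 ± 0.09 (adjusted p = 0.00149), the same difference with a smaller error. With the block Ccl5 failed without the arrays numbered 1 (adjusted p = 0.0732) and passed without those numbered 2 (0.014) or 3 (0.038). Leaving out single arrays with no block, the difference ran from 0.71 to 1.39 and never passed. Against unstimulated control cells Ccl5 was 1.63 ± 0.44 higher in BAF-knockdown cells (3.10-fold, adjusted p = 0.154, or 0.000158 with the block).

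For the 4 genes called in the TNF comparison, the knockdown differences were small beside the TNF response, and none passed. Ccl2 differed by 0.19 ± 0.16 (95% interval -0.18 to 0.56), with knockdown arrays higher within all 3 numbers (0.21, 0.10 and 0.26). It was the member whose arrays did not overlap on the higher side, against 4.63% of all genes, and Ccl9 the member on the lower side, against 5.47%. Ccl20 differed by 0.23 ± 0.18 (interval -0.18 to 0.65) and by 0.30, 0.06 and 0.34 within numbers. Ccl3 differed by -0.14 ± 0.15 (interval -0.49 to 0.21), and by -0.36, -0.00 and -0.06 within numbers. Ccl7 differed by -0.17 ± 0.31 (interval -0.89 to 0.54), with -0.39, 0.32 and -0.45 within numbers, and without BAF-knockdown array 1 its difference turned to 0.11. These intervals, from the fit without the block, bound the size of a knockdown effect and do not show that there was none. For Ccl7 a fall of up to 0.89 log2 units lies inside its interval. With the block the SE was 0.11 for Ccl2, 0.09 for Ccl20, 0.12 for Ccl3 and 0.26 for Ccl7. None passed there either, the lowest adjusted p being 0.284, for Ccl20 (limma, unadjusted p = 0.0293).

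**Figure D2:**
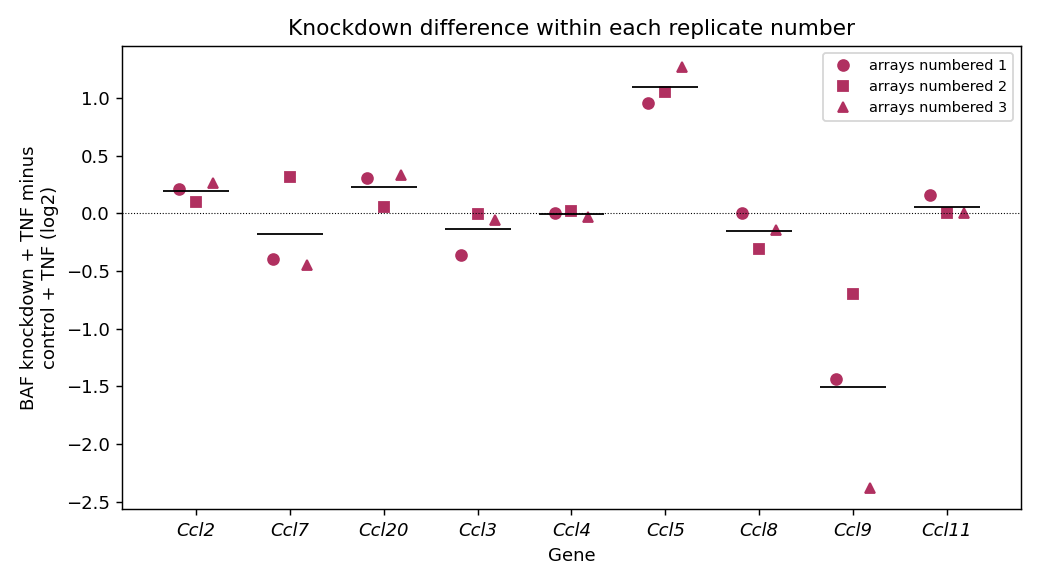
Difference in RMA log2 level between BAF-knockdown and control cells, both given TNF-α, within each replicate number for each CC chemokine; lines are means of the 3 differences. Ccl5 is higher in 3 of 3 numbers by 0.96 to 1.27, Ccl9 lower in 3 of 3 by amounts between -0.70 and -2.38, and Ccl7 takes both signs.

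Set against unstimulated control cells, BAF-knockdown cells given TNF-α had higher levels of the same 4 genes, against 0.518% of all genes called higher. The difference was 2.52 ± 0.16 for Ccl2 (5.73-fold, adjusted p = 0.000438), 2.21 ± 0.31 for Ccl7 (4.61-fold, 0.0197), 1.88 ± 0.18 for Ccl20 (3.69-fold, 0.00373) and 1.28 ± 0.15 for Ccl3 (2.42-fold, 0.0129). With the block Ccl5 joined them, making 5, against 1.98% of all genes. The arrays did not overlap for 5 members on the higher side, against 7.01% of all genes, and for Ccl9 on the lower side, against 7%. This comparison shares its arrays with the other 2 and is not independent of them. Ccl3 did not pass without unstimulated array 1 (adjusted p = 0.0788), BAF-knockdown array 1 (0.0656) or BAF-knockdown array 3 (0.055). Ccl7 did not pass without any 1 of the unstimulated arrays (0.0627 to 0.0843) or BAF-knockdown array 3 (0.0657).

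Expressed as the part of the TNF rise in control cells that knockdown cells reached above the same baseline, the ratio of the mean log2 differences was 108% for Ccl2, 114% for Ccl20, 92.7% for Ccl7 and 90.2% for Ccl3. After the same means were taken out of the log scale it was 118%, 126%, 86.0% and 85.3% in that order. Within numbers 1, 2 and 3 the ratio on the log2 scale was 109%, 104% and 113% for Ccl2, and 118%, 104% and 120% for Ccl20. It was 79.6%, 111% and 81.1% for Ccl7, and 79.2%, 99.8% and 96.2% for Ccl3. The baseline is that of control cells, so these shares would shift if unstimulated knockdown cells started elsewhere, and for Ccl3 and Ccl20 that baseline lies below the array medians.

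**Figure D3:**
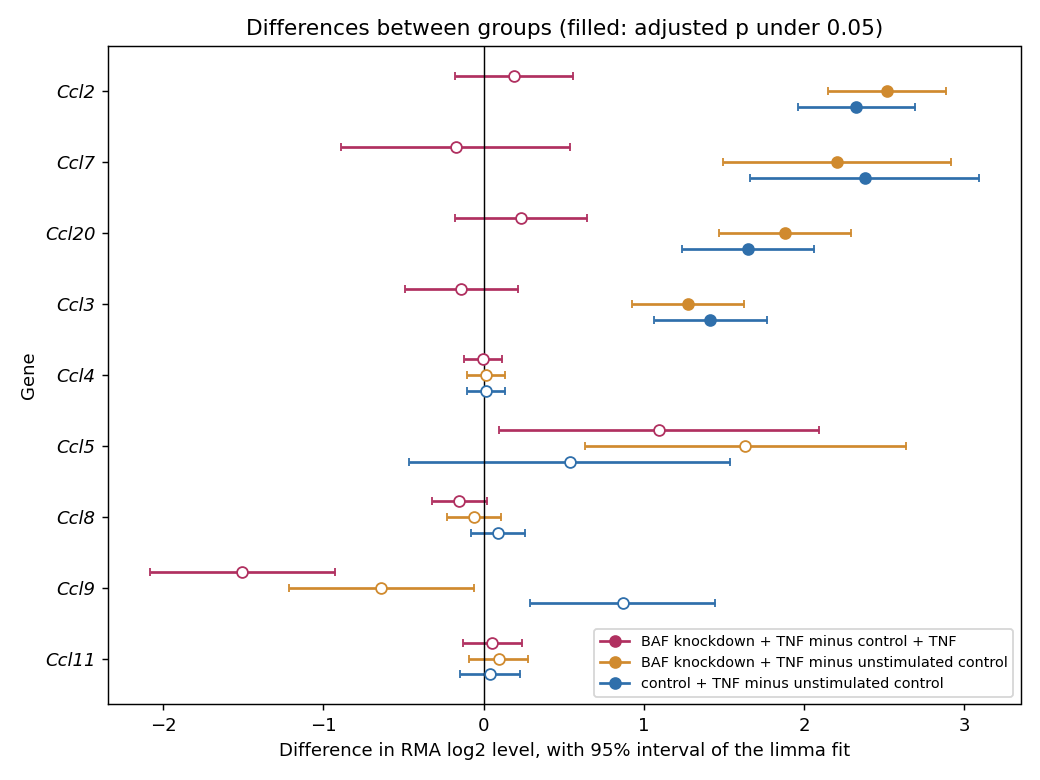
Difference in RMA log2 level of each CC chemokine in the 3 comparisons, with the 95% interval of the limma fit without the block; filled points passed at an adjusted p under 0.05. Filled points appear for Ccl2, Ccl7, Ccl20 and Ccl3 in both comparisons with unstimulated cells and for none of the 9 between the TNF-treated groups, where Ccl9 lies at -1.51 and Ccl5 at 1.09.

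In the GRCm38.p6 annotation Ccl20 is on chromosome 1 and the other 8 are on chromosome 11. Ccl2, Ccl7, Ccl11, Ccl12, Ccl8 and Ccl1 follow one another with no other protein-coding gene between them, and 25 protein-coding genes further on Ccl5, Ccl9, Ccl6, Ccl3 and Ccl4 do the same. In the first of these clusters Ccl2 and Ccl7 rose with TNF-α, by 2.33 and 2.38, and the next gene, Ccl11, differed by 0.04. In the other cluster Ccl3 rose by 1.42 and its neighbour Ccl4 differed by 0.02. There too lie both members that passed with the block under BAF knockdown, the adjacent Ccl5 (1.09) and Ccl9 (-1.51), while Ccl6, next to Ccl9, differed by 0.04. Ccl6 averaged 6.92 in BAF-knockdown cells, 6.88 in TNF-treated control cells and 6.89 in unstimulated control cells. Like Ccl4 and Ccl11 it lay below the array medians of 7.77 to 7.83, so a lack of RNA and a lack of response cannot be told apart. No test of position was made.

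**Figure D4:**
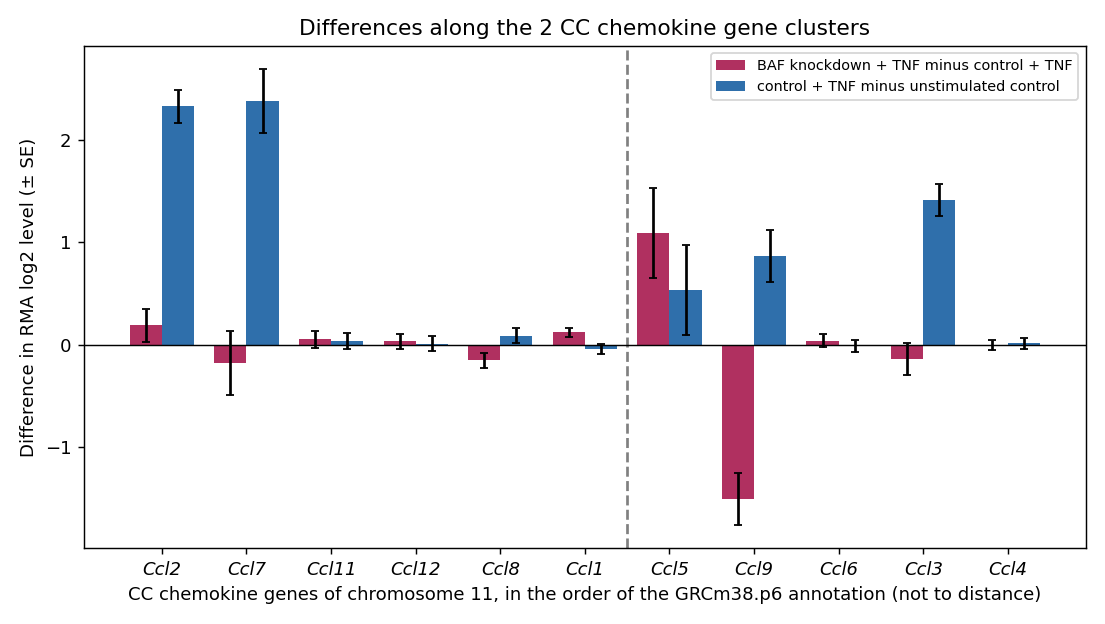
Difference in RMA log2 level (± SE) of the 11 CC chemokine genes of chromosome 11 in their annotated order, not to distance, for BAF-knockdown minus control cells given TNF-α and for TNF-treated minus unstimulated control cells; the dashed line parts the 2 clusters. Ccl2, Ccl7 and Ccl3 stand high after TNF-α, and the adjacent Ccl5 and Ccl9 point in opposite directions under BAF knockdown.

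For each of the 4 members called after TNF-α, the 5 genes with the most similar pattern were found. Likeness was taken as Pearson's r over the 9 arrays among the 654 genes that ranged over at least 1 log2 unit. Since arrays share a group, and same-numbered arrays were taken to share a day, it is a description. Ccl2 ran with Nfkbia (0.991) and Nfkbie (0.991), which encode the NF-κB inhibitors IκBα and IκBε, and with Rnd1 (0.985), Ier3 (0.977) and Irf1 (0.972). Ccl7 ran with Cxcl1 (0.938), a neutrophil attractant, then Ier3 (0.935), Ccl2 (0.923), Tnfaip3 (0.921), which encodes the NF-κB brake A20, and Nfkbia (0.914). Ccl20 ran with Birc3 (0.981), Egr2 (0.98), Nfkbie (0.979), Nfkbia (0.977) and Sik1 (0.973), and Ccl3 with Nfkbie (0.978), Ptges (0.977), Zc3h12a (0.968), Ccl20 (0.962) and Ereg (0.96). Among themselves Ccl2, Ccl7, Ccl20 and Ccl3 correlated at 0.831 to 0.963, Ccl5 and Ccl9 at -0.454.

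Of the other CC ligands, 10 of 14 had a transcript cluster with their symbol alone and were analysed. Without the block 0 passed in any of the 3 comparisons (limma). Before adjustment 1 was higher in each comparison of BAF-knockdown cells. It was Ccl1 against TNF-treated control cells (0.12, unadjusted p = 0.0286, limma) and Ccl28 against unstimulated control cells (0.16, unadjusted p = 0.0213). With the block a different gene passed in both comparisons of BAF-knockdown cells, Ccl17 (TARC), a CCR4 ligand. Its level was 10.71, 10.26 and 11.27 in BAF-knockdown cells, 10.13, 9.77 and 10.92 in TNF-treated control cells, and 9.80, 9.74 and 10.51 in unstimulated control cells. As with Ccl5, array 3 was the highest of each group and the groups overlapped. The knockdown difference of Ccl17 was 0.48 ± 0.35 (adjusted p = 0.836, or 0.0258 with the block). Of the CC receptors and scavengers, 13 of 14 were analysed and 0 passed in any comparison with or without the block (limma), with 1 higher before adjustment between the TNF-treated groups and 2 between BAF-knockdown and unstimulated control cells. The highest knockdown difference was 0.15, for Ccr7, the receptor of Ccl19 and Ccl21.

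Upstream of the chemokines, Ripk1, Chuk and Nfkb1 had no transcript cluster with their symbol alone. The other 19 of the 22 genes listed for the path from the TNF receptors to NF-κB were analysed. After TNF-α 2 rose in control cells, Nfkbie by 1.67 ± 0.11 and Nfkbia by 1.38 ± 0.08 (adjusted p = 0.00069 and 0.000467), and 17 did not pass. With the block 4 passed, Nfkb2 (0.45, adjusted p = 0.0417) and Nfkbib (0.48, 0.0129) joining them. Rel, which encodes the NF-κB subunit c-Rel, differed by 0.83 ± 0.17 and Relb by 0.56 ± 0.10 without passing in either fit. Between the knockdown and control cells given TNF-α 0 of the 19 passed, with or without the block, and 1 was lower at an unadjusted p under 0.05, Tnfrsf1b (TNFR2, -0.28 ± 0.09). Nfkbia and Nfkbie differed there by 0.08 and 0.03, beside 0.19 for Ccl2.

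Of the 12 fibroblast markers 0 passed between knockdown and control cells given TNF-α without the block. At an unadjusted p under 0.05 (limma) 4 were lower: Dcn, S100a4, Col3a1 and Col1a2. With the block 4 passed as lower, against 2.33% of all genes: Dcn by -2.13, S100a4 by -1.18, Col3a1 by -0.93 and Pdgfra by -0.57 log2 units. The 4 genes that passed with the block were lower in the same arrays in which Ccl9 was lower and Ccl5 higher, and their part in those differences was not tested. The 10 endothelial and epithelial markers gave 0 calls in any comparison, and 0 before adjustment (limma).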

How the data were processed

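The authors deposited log2 signals from RMA (background correction, quantile normalization, median polish), 1 value per transcript cluster and array, made with the affy package of Bioconductor according to the reporting summary. The genome build of the array annotation is not stated. Quantile normalization removes any shift common to all genes, so differences are relative to the other genes. The values ran from 3.36 to 14.61 over 27024 transcript clusters, array medians from 7.77 to 7.83, and correlations between arrays from 0.992 to 0.998. Clusters with 1 symbol (21319) were kept, and those with several (1430) or none (4275) name no gene. The cluster with the highest mean stood for each of 930 genes with several, leaving 19698 genes. Arrays give no read depth, so their number limits precision.

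Groups were compared with limma (version 3.58.1, R version 4.3.3; all 9 arrays in one model with a mean for each of 3 groups, which leaves 6 residual degrees of freedom; two-sided, Benjamini-Hochberg over 19698 genes, called at an adjusted p under 0.05). "Passed" means called so. Counts at an unadjusted p under 0.05 stand without the share of all genes at that cut, which is not given here, so they are descriptions. The script was tested on simulated data. The methods state that replicates were made on different days, and same-numbered arrays correlated in their deviations from group means at 0.210 to 0.724, against -0.566 to 0.0111 for others. All exceeded the minimum of 0.1, so the replicate number was used as a block in a second fit. The methods' t-test for induced genes, with a minimum difference of 0.35, was run as an alternative. For the knockdown the methods give a difference over 0.3 and no test. That criterion was added after seeing the data, and the t-test with a minimum of 0.3 was run there too. Other alternatives were array weights, a variance trend, median centring, omission of dim genes, the mean of all clusters of a symbol, fits of only the 2 groups compared, and omission of arrays.

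All 9 members are named, with the defining markers, up to 4 genes from each other list by size of difference in a comparison, called ones first, and the 5 genes most like each called member. Lum, Fap, Thy1, Cd14, Cd68, Nfkb2, Nfkbib and Tnfrsf1b were named after their values were seen. The members and lists were chosen with earlier results of these data known. Promoter windows came from RefSeq.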

Additional observations from a re-analysis of the deposited data

How the results depend on the processing

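For the TNF comparison in control cells, 4 members passed, and median centring, the variance trend, array weights and the mean of all clusters each gave 4. The methods' t-test gave 5 before adjustment and 0 after it. Fits of the 2 groups alone gave 3, without Ccl3, omission of dim genes gave 3, because Ccl3 is itself among the dim genes, and leaving out single arrays gave 1 to 4. The replicate block gave 4, but 0 without the arrays numbered 1 and 2 without those numbered 3. For BAF knockdown against control cells given TNF-α, 0 members passed. The replicate block gave 2 (Ccl5 and Ccl9), the block without the arrays numbered 2 gave 3 (with Ccl20, adjusted p = 0.0499), and the block without those numbered 3 gave 1 (Ccl5). Ccl9 alone passed without dim genes (1, adjusted p = 0.0468), with array weights (1, adjusted p = 0.0424) and by a t-test with a minimum difference of 0.3 before adjustment (1, and 0 after it), and leaving out single arrays gave 0 to 1. A difference over 0.3 with no test, an alternative added after seeing the data, gave 2 (Ccl5 and Ccl9). Over all its alternatives the adjusted p of Ccl9 ran from 0.0198 to 0.86 and that of Ccl5 from 0.00149 to 0.918. For BAF-knockdown against unstimulated control cells, 4 members passed, the block gave 5, the methods' t-test 0 after adjustment, and leaving out single arrays 2 to 4. Fits of the 2 groups alone gave 3, without Ccl7, and omission of dim genes 3, without Ccl3. The block gave 3 without the arrays numbered 1 (Ccl2, Ccl20 and Ccl5) and 4 without those numbered 3 (with Ccl3 and Ccl5 but not Ccl7).

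Signs turned for Ccl4, Ccl7 and Ccl11, none of which was called in the comparison concerned. With the block and without the arrays numbered 1, Ccl4 differed by -0.0272 after TNF-α in control cells and by -0.0283 in BAF-knockdown minus unstimulated control cells. Without those numbered 2, Ccl11 differed by -0.00174 after TNF-α, and without those numbered 3, Ccl4 by 0.0125 under knockdown. Leaving out single arrays, the TNF differences ran from -0.0309 to 0.0595 for Ccl4 and from -0.0323 to 0.106 for Ccl11. The knockdown differences ran from -0.00748 to 0.00907 for Ccl4, from -0.0129 to 0.111 for Ccl11 and from -0.57 to 0.11 for Ccl7, and those of BAF-knockdown minus unstimulated control cells from -0.0316 to 0.0587 for Ccl4. The cause was not tested. Each group has 3 arrays, and Ccl4, Ccl8 and Ccl11 averaged below the array medians.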
